A study of Mus musculus with 10 samples.

Results

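The genes described here are 10 genes of the response to stress in the endoplasmic reticulum (ER) and of the transcription factor ATF4, read in tumours grown from the mouse hepatoma line Hepa1-6. They were chosen by gene symbol and are 10 of the 55020 lines of the deposited expression table. Each symbol had 1 line. The chaperone arm holds 5 of them (Hspa5, Hsp90b1, Dnajb9, Xbp1 and Herpud1) and the ATF4 arm the other 5 (Atf4, Ddit3, Trib3, Asns and Chac1). The cells had been injected under the skin of C57/BL6 mice and the tumours grown for 4 weeks. The comparison was between 5 tumours treated with GSK343 (replicates 1 to 5), which inhibits EZH2, the enzyme that methylates histone H3 at Polycomb targets,, and 5 tumours given vehicle (replicates 1, 2, 3, 5 and 6). Only the GSK343 titles name their agent, and the remaining titles were taken as vehicle by elimination. The protocol also speaks of a control antibody and an anti-asialo-GM1 antibody, which depletes natural killer cells; the labels do not assign it to single tumours, so any effect of the antibody cannot be told apart from the treatment. RNA came from whole tumours, so cells of the host are included, and in such bulk samples fewer cells of a type and less RNA per cell cannot be told apart.

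When unfolded proteins gather in the ER, the sensors IRE1, ATF6 and PERK are activated. IRE1 splices Xbp1 mRNA and ATF6 is cut to a free transcription factor, and both then drive genes of chaperones and of protein degradation. PERK phosphorylates eIF2, which lowers translation in general but favours translation of Atf4 mRNA, and ATF4 in turn drives genes of amino acid supply and of cell death. Other eIF2 kinases reach ATF4 without ER stress, for example on amino acid shortage. Hepatocytes and their tumours secrete large amounts of protein and keep high levels of ER chaperones. The table has a single value per gene, so it cannot tell spliced from unspliced Xbp1, and it does not measure ATF4 protein.

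Promoter sequences are shown first because ER stress factors and ATF4 are known to act through short elements in promoters. All 10 genes had a RefSeq promoter in mouse build GRCm38.p6, from 250 bases before to 50 bases after the start site, read along the gene's strand. Both strands of 32851 such promoters were searched for 4 motifs. The ER stress element (ERSE, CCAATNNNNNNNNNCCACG), bound by ATF6 with NF-Y, was found in 39 promoters (0.119%), among them those of Hspa5 and Hsp90b1. The shorter ERSE-II (ATTGGNCCACG) was found in 12 (0.0365%), among them Herpud1. The core of the C/EBP-ATF response element (CARE, TGATGNAA), through which ATF4 acts, was found in 1304 (3.97%), among them Trib3, Asns, Chac1 and also Herpud1. The unfolded protein response element core (TGACGTGG) was found in 222 (0.676%) and in none of the 10 genes. The promoters of Dnajb9, Xbp1, Atf4 and Ddit3 held none of the 4 motifs in this window. Capitals in the sequences mark the fixed letters of a match, and a match on the minus strand reads as its reverse complement. In Herpud1 the first marked match is CARE on the minus strand and the second is ERSE-II; the 2 matches do not overlap. The 3 chaperone arm promoters are given whole, at chr2:34771840-34772139 (plus strand) for Hspa5, chr10:86705395-86705694 (minus strand) for Hsp90b1 and chr8:94386179-94386478 (plus strand) for Herpud1.
Hspa5: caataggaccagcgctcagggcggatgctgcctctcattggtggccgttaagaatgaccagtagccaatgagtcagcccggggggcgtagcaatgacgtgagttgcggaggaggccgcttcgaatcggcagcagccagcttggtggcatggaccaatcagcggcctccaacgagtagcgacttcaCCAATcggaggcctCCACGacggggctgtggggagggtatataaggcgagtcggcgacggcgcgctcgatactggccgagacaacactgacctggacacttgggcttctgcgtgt
Hsp90b1: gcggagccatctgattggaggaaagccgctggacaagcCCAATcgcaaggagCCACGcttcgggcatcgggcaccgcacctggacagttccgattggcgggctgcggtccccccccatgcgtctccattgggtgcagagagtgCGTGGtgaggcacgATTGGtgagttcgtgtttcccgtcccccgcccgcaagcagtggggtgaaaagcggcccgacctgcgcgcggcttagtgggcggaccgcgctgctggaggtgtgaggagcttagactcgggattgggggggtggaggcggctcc
Herpud1: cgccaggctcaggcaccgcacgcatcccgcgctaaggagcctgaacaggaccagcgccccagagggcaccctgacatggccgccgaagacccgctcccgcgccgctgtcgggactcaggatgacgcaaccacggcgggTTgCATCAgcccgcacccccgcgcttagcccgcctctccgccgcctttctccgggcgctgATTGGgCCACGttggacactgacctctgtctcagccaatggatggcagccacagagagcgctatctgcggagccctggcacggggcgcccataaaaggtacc

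The CARE matches of the ATF4 arm are shown within 60 bases, at chr2:152344013-152344072 (minus strand) for Trib3, chr6:7693199-7693258 (minus strand) for Asns and chr2:119351023-119351082 (plus strand) for Chac1. They are descriptions of the letters in these windows and were not tested as binding sites. The first base of the match lay 15 bases after the start site in Trib3, at -23 in Asns and at -193 in Chac1.
Trib3: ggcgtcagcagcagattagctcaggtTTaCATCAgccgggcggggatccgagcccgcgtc
Asns: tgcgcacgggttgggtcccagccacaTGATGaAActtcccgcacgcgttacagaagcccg
Chac1: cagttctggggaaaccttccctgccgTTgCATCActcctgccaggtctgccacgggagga

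Values are given in FPKM (fragments scaled to transcript length and library size), a level per length. The table names no unit, and FPKM was read from the values, which summed to 574547 to 623397 per tumour. The table holds no counts, so the read depth is unknown here and no counting interval is given. Each tumour had 13985 to 14714 lines at 1 FPKM or more. The mitochondrial share of the sum was highest in GSK343 replicates 3 and 5, at 7.17% and 7.11%, and lay between 2.63% and 5.05% elsewhere. Albumin (Alb), a marker of hepatocytes, averaged 2810 ± 278 FPKM in GSK343 tumours and 3129 ± 318 FPKM in vehicle tumours (SD, n = 5 each). Markers of other cell types were also present. The summed level of 8 leukocyte genes was 527 to 927 FPKM in GSK343 tumours and 249 to 768 FPKM in vehicle tumours, with 8 of 8 means higher in GSK343 tumours. The 8 macrophage genes summed to 799.96 to 1307 FPKM in GSK343 tumours and 328 to 1429 FPKM in vehicle tumours (8 of 8 means higher), and 8 skeletal muscle genes to 55.5 to 372 FPKM and 2.71 to 94.5 FPKM in GSK343 and vehicle tumours (8 of 8). The 10 hepatocyte and hepatoma genes summed to 4771 to 6567 FPKM in GSK343 tumours and 6068 to 7907 FPKM in vehicle tumours, with 0 of 10 means higher in GSK343 tumours. The 8 keratinocyte genes summed to 1.81 to 25.1 FPKM in GSK343 tumours and 2.79 to 123 FPKM in vehicle tumours, with 0 of 8 means higher in GSK343 tumours. None of the genes of these lists was at 0 in every tumour, and the part of these differences in the values below was not tested. In the limma test described below, 0 tested genes of these marker lists were called. On the log scale, 6903 of all 14496 lines tested were higher in GSK343 tumours.

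None of the 10 genes passed the test between GSK343 and vehicle tumours, and their log2 fold changes lay between -0.27 and 0.15. Differences were tested with limma on log2(FPKM + 1) over 14496 lines whose mean reached 1 FPKM, with Benjamini-Hochberg adjustment over all of them and a call at an adjusted p under 0.05. All 10 genes passed the filter, and 0 of 10 were called, against 12 of all lines (0.0828%). At an unadjusted limma p under 0.05 there was 1 of 10, Xbp1, against 17.6% of all lines. The exact permutation test over all ways of choosing 5 of the 10 tumours (two-sided, smallest possible p 0.00794) placed only Xbp1 under 0.05. It used the same values as limma, and its share over all lines is not given here. The ranges of the groups overlapped in each of the 10 genes, while they did not overlap in 2.62% of all lines. The mean was lower in GSK343 tumours in 8 of 10 genes on the log scale, with a median log2 fold change of -0.14, against a median of -0.01 and 52.4% lower over all lines. Without vehicle replicate 1, a tumour described below, these were 6 of 10 and -0.02, against 54.7% lower and a median of -0.02 over all lines. A log2 fold change here is GSK343 over vehicle of FPKM + 1, and it understates the change of low genes. The 95% intervals bound what these tumours allow: their ends lay between 0.546-fold (Ddit3) and 1.52-fold (Hspa5).

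**Figure D1:**
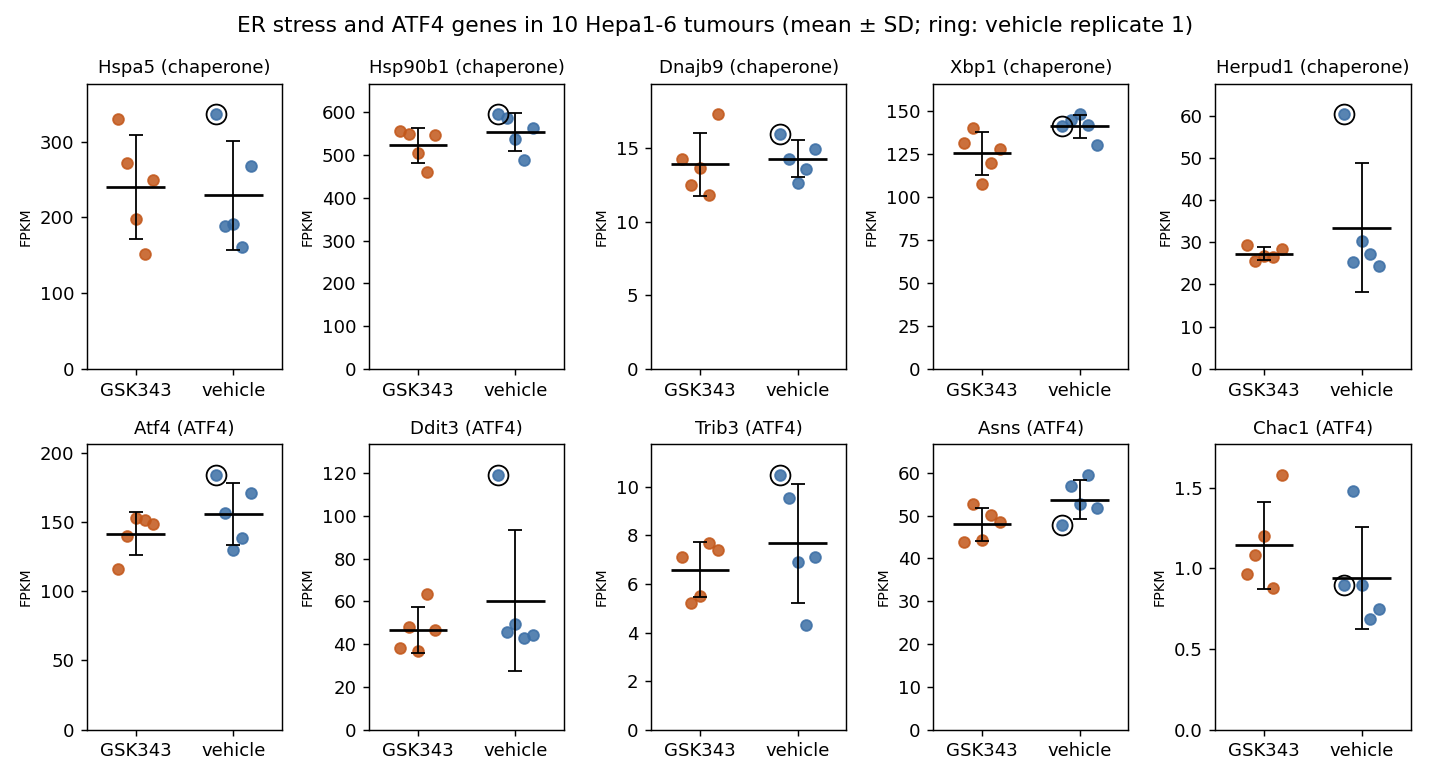
FPKM (vertical axes, from 0) of the 10 genes in GSK343 (left) and vehicle (right) tumours, with 1 point per tumour and the mean ± SD of 5 tumours. The groups overlap in every panel, and the ringed vehicle replicate 1 lies far above the other 9 tumours for Herpud1 (60.3 FPKM) and Ddit3 (119 FPKM).

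Hspa5 encodes BiP, the chief chaperone of the ER lumen, which also holds the sensors inactive (ENSMUSG00000026864.13, mm10 chr2:34771970-34777547). Its level was 329, 272, 198, 151 and 249 FPKM in GSK343 replicates 1 to 5, against 336, 188, 192, 161 and 268 FPKM in vehicle replicates 1, 2, 3, 5 and 6. The highest and the lowest values of the 2 groups were close to each other, and the spread lay within the groups, where the highest tumour of the 10 was 2.22 times the lowest. GSK343 over vehicle came to a log2 fold change of 0.07 (SE 0.242, 95% interval -0.46 to 0.61, limma adjusted p = 0.905), and without vehicle replicate 1 it was 0.22 (limma adjusted p = 0.659).

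Hsp90b1 encodes GRP94, the ER member of the HSP90 family (ENSMUSG00000020048.13, chr10:86690209-86705509). It had the highest level of the 10 genes, at 555, 548.5, 504, 459.6 and 548 FPKM in GSK343 replicates 1 to 5 and 595, 585, 536, 487 and 563 FPKM in vehicle replicates 1, 2, 3, 5 and 6. It was the steadiest of the 10 genes, with a coefficient of variation of 7.97% over all tumours, lower than that of all but 8.73% of the tested lines. The log2 fold change was -0.08 (SE 0.0819, limma adjusted p = 0.625). Other annotated genes share part of its exons in GENCODE M21, among them the pseudogene 1810014B01Rik on the other strand (10.3% of the exonic bases), and the strand setting of the counting is not given in the sources used here.

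Dnajb9 encodes ERdj4, a BiP co-chaperone and a target of spliced XBP1 (ENSMUSG00000014905.4, chr12:44205559-44210326). It had 14.3, 12.5, 13.7, 11.8 and 17.3 FPKM in GSK343 replicates 1 to 5 and 15.9, 14.2, 12.7, 13.6 and 14.9 FPKM in vehicle replicates 1, 2, 3, 5 and 6. The GSK343 tumours held both the lowest and the highest of the 10 values. On the log2 scale the fold change was -0.04 (SE 0.103, limma adjusted p = 0.861).

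Xbp1 encodes the transcription factor whose mRNA IRE1 splices (ENSMUSG00000020484.18, chr11:5520659-5525893). It had 131, 140.2, 107, 119.9 and 128 FPKM in GSK343 replicates 1 to 5 and 141, 145, 148, 142 and 130.3 FPKM in vehicle replicates 1, 2, 3, 5 and 6. The groups overlapped through vehicle replicate 6, which lay below GSK343 replicates 1 and 2; the other vehicle tumours lay above all GSK343 tumours. The log2 fold change was -0.17 (SE 0.0778, 95% interval -0.35 to -0.00240), with an unadjusted limma p of 0.0474, a limma adjusted p of 0.281 and an exact two-sided permutation p of 0.0317 before any adjustment. Without vehicle replicate 1 it was -0.17 (limma adjusted p = 0.390). Plasma cells are rich in Xbp1, and the summed level of 10 B and plasma cell genes was 50.4 to 1172 FPKM in GSK343 tumours and 52.0 to 312 FPKM in vehicle tumours, with Ms4a1 under 1 FPKM in every tumour; its part in the Xbp1 values was not tested.

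Herpud1 encodes a membrane protein of ER-associated degradation, the route by which misfolded proteins leave the ER (ENSMUSG00000031770.16, chr8:94386438-94395377). It had 29.4, 25.5, 26.8, 26.4 and 28.4 FPKM in GSK343 replicates 1 to 5 and 60.3, 25.3, 30.3, 27.2 and 24.3 FPKM in vehicle replicates 1, 2, 3, 5 and 6. The GSK343 tumours were alike (27.3 ± 1.56 FPKM, SD, n = 5), and vehicle replicate 1 was 2.25 times the mean of the other vehicle tumours (26.8 ± 2.64 FPKM, SD, n = 4). The log2 fold change was -0.20 (SE 0.212, limma adjusted p = 0.648) and, without that tumour, 0.03 (limma adjusted p = 0.879).

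Atf4 encodes the transcription factor at the head of its arm (ENSMUSG00000042406.8, chr15:80255184-80257541). Its mRNA had 116, 139.7, 153, 151 and 149 FPKM in GSK343 replicates 1 to 5 and 184, 157, 129, 138 and 171 FPKM in vehicle replicates 1, 2, 3, 5 and 6. GSK343 replicate 1 was the lowest of the 10 tumours and vehicle replicate 1 the highest, and the remaining values overlapped. Between the groups the log2 fold change was -0.13 (SE 0.114, 95% interval -0.38 to 0.12, limma adjusted p = 0.567).

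Ddit3 encodes CHOP, a transcription factor that ATF4 induces and that promotes cell death under lasting stress (ENSMUSG00000025408.15, chr10:127290774-127296288). It had 38.0, 48.2, 36.6, 63.6 and 46.7 FPKM in GSK343 replicates 1 to 5 and 119, 45.6, 49.6, 43.1 and 44.2 FPKM in vehicle replicates 1, 2, 3, 5 and 6. Vehicle replicate 1 was 2.61 times the mean of the other vehicle tumours (45.6 ± 2.86 FPKM, SD, n = 4), and GSK343 replicate 4 came next. Among the 10 genes Ddit3 varied most, with a coefficient of variation of 45.3%, higher than that of 91.2% of the tested lines. Its log2 fold change was -0.27 (SE 0.273, limma adjusted p = 0.631) and, without vehicle replicate 1, 0.00426 (limma adjusted p = 0.993). Mars, which encodes a tRNA synthetase and shares 3.97% of the exonic bases of Ddit3 on the other strand, was at 19.3 FPKM in vehicle replicate 1, the lowest of the 10 tumours. That share is of the GENCODE M21 model of Ddit3, whose span differs from that of the line used here.

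Trib3 encodes a pseudokinase induced by ATF4 and CHOP that binds AKT (ENSMUSG00000032715.9, chr2:152337422-152344032). It had 7.13, 5.22, 5.52, 7.69 and 7.42 FPKM in GSK343 replicates 1 to 5 and 10.5, 9.54, 6.91, 4.30 and 7.12 FPKM in vehicle replicates 1, 2, 3, 5 and 6. The vehicle tumours held both extremes. Its log2 fold change was -0.15 (SE 0.199, limma adjusted p = 0.712).

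Asns encodes asparagine synthetase, a classic ATF4 target (ENSMUSG00000029752.12, chr6:7675169-7693254). It had 43.9, 52.7, 44.2, 50.2 and 48.6 FPKM in GSK343 replicates 1 to 5 and 47.8, 56.9, 52.6, 59.5 and 51.7 FPKM in vehicle replicates 1, 2, 3, 5 and 6. GSK343 replicates 1 and 3 were the lowest tumours and vehicle replicate 5 the highest; vehicle replicate 1, high for most of the other genes, was the lowest vehicle tumour here. The log2 fold change was -0.16 (SE 0.0793, 95% interval -0.34 to 0.01) with an unadjusted limma p of 0.0691 and an adjusted p of 0.322, and without vehicle replicate 1 it was -0.20 with an unadjusted limma p of 0.0283 and an adjusted p of 0.338.

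Chac1 encodes a glutathione-degrading enzyme induced through ATF4 (ENSMUSG00000027313.3, chr2:119351229-119354381). It had 0.967, 1.08, 1.20, 0.879 and 1.58 FPKM in GSK343 replicates 1 to 5 and 0.894, 1.48, 0.897, 0.685 and 0.745 FPKM in vehicle replicates 1, 2, 3, 5 and 6. Its mean of 1.04 FPKM lay just over the filter, and GSK343 replicate 5 and vehicle replicate 2 stood above the others. Its log2 fold change was 0.15 (SE 0.129, limma adjusted p = 0.574).

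**Figure D2:**
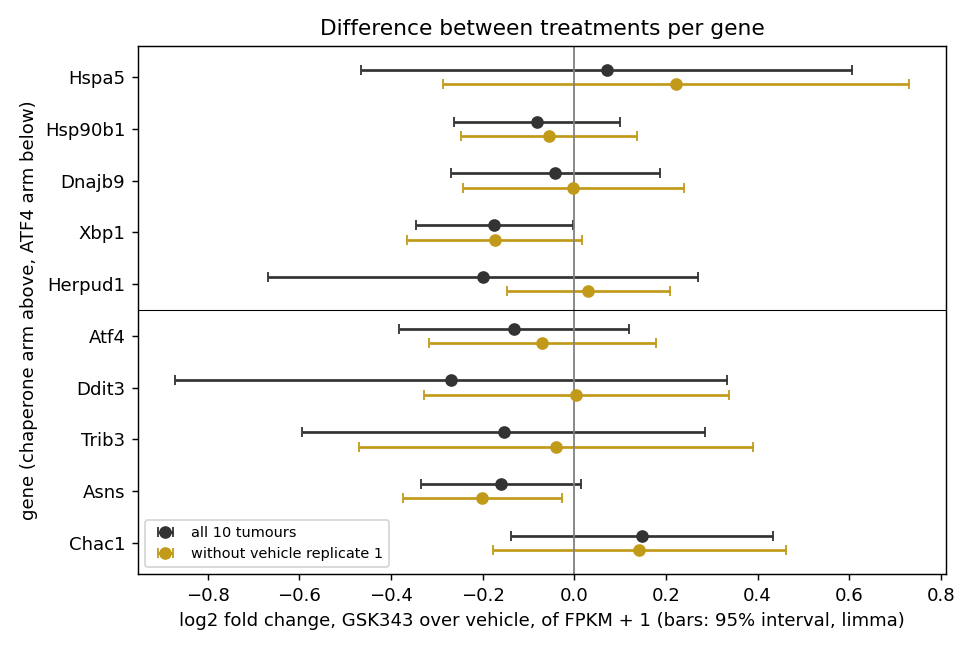
The log2 fold change of FPKM + 1, GSK343 over vehicle (horizontal axis), with its 95% limma interval for each gene, for all 10 tumours and without vehicle replicate 1. The values of Ddit3 (-0.27) and Herpud1 (-0.20) move to 0.00426 and 0.03 when that tumour is left out, and their intervals narrow.

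By level per length the order over all tumours was Hsp90b1, Hspa5, Atf4, Xbp1, Ddit3, Asns, Herpud1, Dnajb9, Trib3 and Chac1. The ranges of neighbours in that order did not overlap between Hsp90b1 and Hspa5, Herpud1 and Dnajb9, Dnajb9 and Trib3, or Trib3 and Chac1, and overlapped for the others, in the case of Xbp1 with Ddit3 and of Asns with Herpud1 only through vehicle replicate 1.

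The arms were then set against each other. The mean log2(FPKM + 1) of the ATF4 arm was 4.46 ± 0.120 in GSK343 tumours and 4.57 ± 0.220 in vehicle tumours, and that of the chaperone arm was 6.51 ± 0.160 and 6.60 ± 0.208 in GSK343 and vehicle tumours (SD, n = 5 each). The ATF4 arm minus the chaperone arm was -2.05 ± 0.234 in GSK343 tumours and -2.03 ± 0.107 in vehicle tumours, a difference of -0.03 that was smaller than either SD; no test is given for a score over chosen genes. Its sign was not stable: it was 0.0457 without GSK343 replicate 1, 0.0186 without vehicle replicate 2 and -0.12 without GSK343 replicate 4. Within the GSK343 group the arms ranked the tumours differently: replicate 1 had the highest chaperone arm (6.68) and the lowest ATF4 arm (4.33) of that group, and replicate 4 the lowest chaperone arm (6.29) and the highest ATF4 arm (4.59). Vehicle replicate 1 had the highest value of all tumours in both arms, 6.96 for the chaperone arm and 4.90 for the ATF4 arm.

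**Figure D3:**
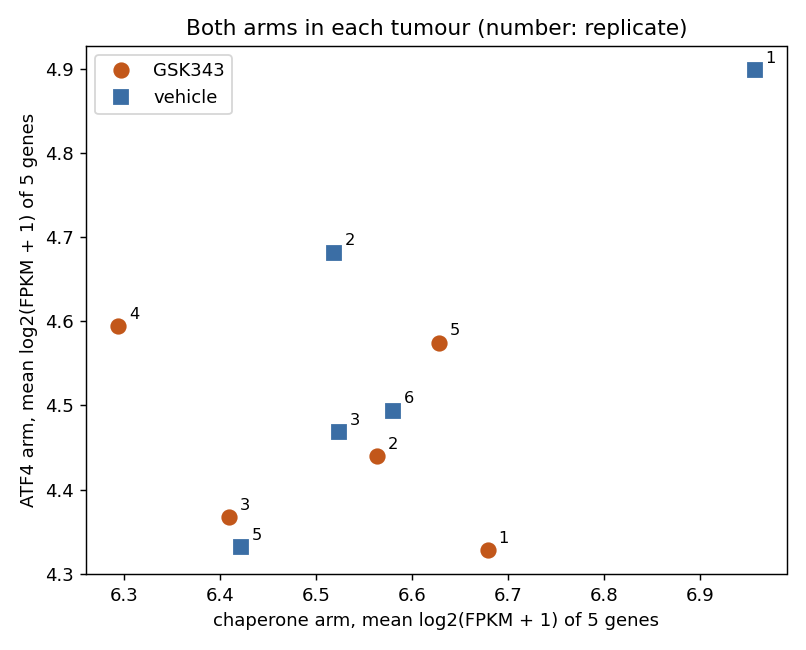
Mean log2(FPKM + 1) of the 5 chaperone arm genes (horizontal axis) and of the 5 ATF4 arm genes (vertical axis), with 1 point per tumour numbered by replicate. The groups are mixed, and vehicle replicate 1 lies alone at 6.96 and 4.90.

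Across the 10 tumours, 0 of the 45 pairs of genes were correlated at an adjusted p under 0.05 (permutation tests of Pearson's r and of Spearman's rho, 100000 resamples, adjusted over the 45 pairs), and for r 2 pairs had an unadjusted permutation p under 0.05. Hspa5 and Hsp90b1, both chaperones with an ERSE, had r = 0.744 (permutation p = 0.0139, adjusted 0.514) and rho = 0.697 (permutation p = 0.0308, adjusted 0.854). For this pair r was 0.696 without the 2 tumours farthest from the median of Hspa5, and 0.840 after the group means were subtracted. Xbp1 and Asns had r = 0.635 (permutation p = 0.0478, adjusted 0.514), which was 0.397 after the group means were subtracted. The largest r, 0.853 between Ddit3 and Herpud1 (permutation p = 0.0618, adjusted 0.514), rested on vehicle replicate 1: rho was 0.261, and r was -0.109 without that tumour. All 10 pairs within the chaperone arm were positive, with a median r of 0.444, and within the ATF4 arm 6 of 10 were, with a median r of 0.0492. Between the arms 18 of 25 pairs were positive, with a median r of 0.254. Without vehicle replicate 1 these medians were 0.0854, 0.216 and 0.0153. Not all chaperone arm pairs stayed positive there: r was -0.119 for Hsp90b1 with Herpud1 and -0.0616 for Dnajb9 with Xbp1.

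Vehicle replicate 1 held the highest of the 10 values for 6 of the 10 genes (Hspa5, Hsp90b1, Herpud1, Atf4, Ddit3 and Trib3), for 40 of 130 other genes of the pathway (30.8%) and for 13.1% of all tested lines. It lay at least 1.5-fold above each other tumour for Ddit3 and Herpud1, for 3 of the 130 other genes (2.31%) and for 0.814% of all lines. These 3 were Ero1l, the oxidase that drives disulfide formation in the ER (66.2 FPKM, against 24.4 to 34.5 FPKM in the other 9 tumours), Creb3l2, an ER-bound transcription factor (28.2 against 11.4 to 17.1 FPKM), and Cars, the cysteinyl-tRNA synthetase (116 against 50.5 to 70.9 FPKM). Other genes of the lists lay above all other tumours there by less, such as Vegfa (74.8 against 40.1 to 52.0 FPKM), P4hb, a protein disulfide isomerase (730.04 against 436 to 546 FPKM), and Ddit4 (182 against 83.7 to 138 FPKM). Genes of the same lists also had their lowest value in this tumour. Among them were Atf3 (18.2 against 21.4 to 97.9 FPKM in the other tumours) and Gdf15 (12.3 against 14.2 to 21.0 FPKM). Mthfd2 (11.6 against 13.8 to 22.0 FPKM) and Dnajb11 (40.6 against 43.5 to 60.1 FPKM) were others. The list genes named in this paragraph were picked after their values were seen, so they carry no test. The same tumour had the lowest leukocyte sum (249 FPKM) and the highest hepatocyte and hepatoma sum (7907 FPKM); their part in these values was not tested.

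**Figure D4:**
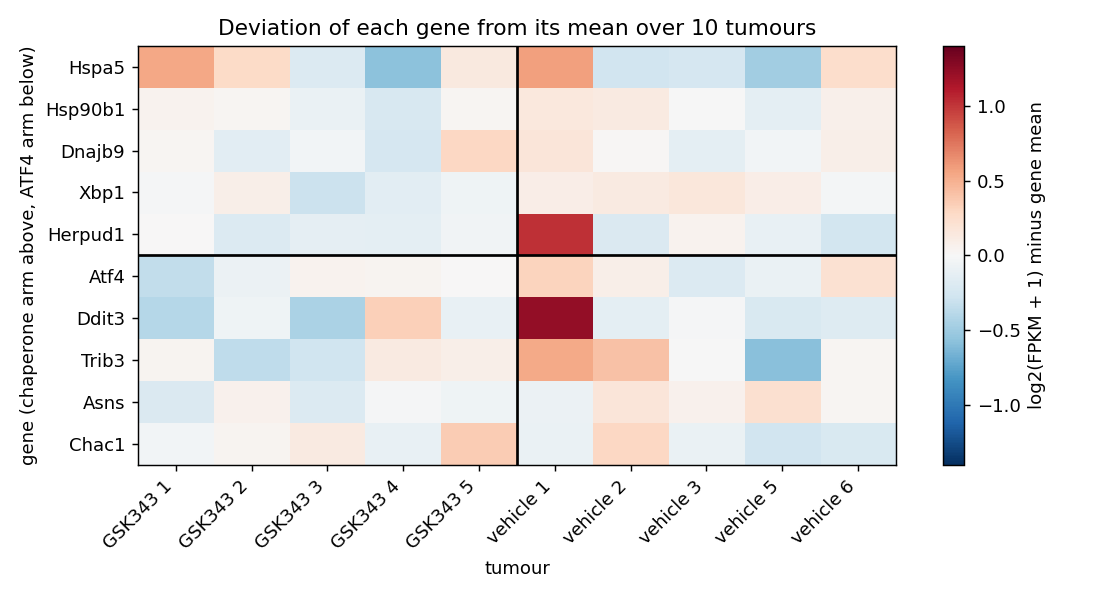
Deviation of log2(FPKM + 1) from the mean of each gene over the 10 tumours (colour scale), with genes in rows, chaperone arm above, and tumours in columns, GSK343 at the left. The darkest cells are Ddit3 (119 FPKM) and Herpud1 (60.3 FPKM) in vehicle replicate 1, and Hspa5 is high there and in GSK343 replicate 1.

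Other genes of the pathway, in 9 lists, were read from the same fit, and 0 genes were called in any of them by limma. Counts at an unadjusted limma p under 0.05 are given below beside the 17.6% of all lines. By direction, 1552 of all 14496 lines were higher and 995 lower in GSK343 tumours at that p. Of 24 ER chaperones and folding enzymes, 1 was higher and 3 lower in GSK343 tumours at that p, with a median log2 fold change of -0.04. Manf, a secreted ER stress protein, had 146 ± 12.6 FPKM in GSK343 tumours and 176 ± 15.1 FPKM in vehicle tumours, and its groups did not overlap (log2 fold change -0.27, limma adjusted p = 0.195). Ero1lb, the other ER oxidase, had 2.78 ± 0.595 and 1.94 ± 0.569 FPKM in GSK343 and vehicle tumours (SD, n = 5 each here and below). Of 19 tested genes of ER-associated degradation, 0 were higher and 1 was lower: Derl1, a channel component, had 62.6 ± 2.58 FPKM in GSK343 tumours and 72.7 ± 5.85 FPKM in vehicle tumours (limma adjusted p = 0.202). Of 16 translocation genes, which carry new proteins into the ER, 1 was higher and 5 were lower, with a median of -0.12. Both catalytic subunits of the signal peptidase were among them, with means that lay in opposite directions: Sec11c had 55.3 ± 5.30 FPKM in GSK343 tumours and 72.3 ± 10.8 FPKM in vehicle tumours, and Sec11a 76.4 ± 13.0 and 53.3 ± 12.4 FPKM in GSK343 and vehicle tumours (limma adjusted p = 0.192 and 0.202).

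Of 9 tested sensors and activators 1 was higher and 0 were lower: Creb3l1, an ER-bound factor of secretory and collagen-making cells, had 8.76 ± 3.44 FPKM in GSK343 tumours and 5.80 ± 1.16 FPKM in vehicle tumours (limma adjusted p = 0.277). Summed fibroblast markers were 1445 to 2225 FPKM in GSK343 tumours and 1513 to 1906 FPKM in vehicle tumours. Of the 8 fibroblast means, 6 were higher in GSK343 tumours, and the median log2 fold change was 0.50. The most abundant, Dcn, lay the other way (1082 ± 108 FPKM in GSK343 tumours, 1169 ± 112 FPKM in vehicle tumours). The part of the fibroblasts in the Creb3l1 values was not tested. Of 11 genes of the eIF2 kinases, phosphatase subunits and eIF2B, 1 was higher and 3 were lower. The 3 were Eif2b5, Eif2b1 and Eif2b3, among the 5 subunits of eIF2B, the exchange factor that phosphorylated eIF2 blocks. Eif2b5 had 27.4 ± 1.44 FPKM in GSK343 tumours and 31.2 ± 0.782 FPKM in vehicle tumours (limma adjusted p = 0.197), without overlap. The subunit Eif2b2, named after its values were seen, lay the other way, with 26.7 ± 3.96 FPKM in GSK343 tumours and 20.6 ± 6.02 FPKM in vehicle tumours (log2 fold change 0.39, limma adjusted p = 0.296). The 1 was Eif2ak2, which encodes PKR, an eIF2 kinase induced by interferon (8.51 ± 0.656 FPKM in GSK343 tumours, 6.91 ± 0.981 FPKM in vehicle tumours). Of 13 genes of amino acid and one-carbon synthesis, 0 were higher and 3 were lower, and these were the enzymes of serine synthesis: Phgdh had 294 ± 39.9 FPKM in GSK343 tumours and 371 ± 15.2 FPKM in vehicle tumours, without overlap, and a log2 fold change of -0.35 (limma adjusted p = 0.191). Psph had 15.8 ± 1.53 and 19.5 ± 2.66 FPKM, and Psat1 80.6 ± 9.75 and 95.7 ± 6.52 FPKM, in GSK343 and vehicle tumours. For Psph and for Psat1 the groups overlapped. Of 9 tested amino acid transporters 0 were higher and 2 lower, Slc7a5 (15.7 ± 2.16 FPKM in GSK343 tumours, 19.9 ± 2.50 FPKM in vehicle tumours) and the cystine carrier Slc7a11 (9.07 ± 1.34 and 11.6 ± 2.01 FPKM in GSK343 and vehicle tumours).

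Of 12 cytosolic tRNA synthetases 1 was higher and 2 were lower. The 1 was Wars, the tryptophanyl enzyme, which interferon induces, with 28.7 ± 8.499 FPKM in GSK343 tumours and 15.9 ± 4.08 FPKM in vehicle tumours, without overlap (log2 fold change 0.81, limma adjusted p = 0.191). Gars, the glycyl enzyme, had 159.7 ± 8.37 FPKM in GSK343 tumours and 183 ± 11.8 FPKM in vehicle tumours, also without overlap. Of 17 tested partners and targets of ATF4 and CHOP, 2 were higher and 1 was lower. The 2 were Atf3, an early stress factor, with 58.7 ± 26.9 FPKM in GSK343 tumours and 26.4 ± 10.001 FPKM in vehicle tumours (log2 fold change 1.07, limma adjusted p = 0.191), and Nupr1, a chromatin-bound stress protein, with 16.4 ± 4.52 FPKM in GSK343 tumours and 10.2 ± 5.04 FPKM in vehicle tumours. Sesn2, an inhibitor of mTORC1 signalling, had 4.03 ± 0.376 FPKM in GSK343 tumours and 5.19 ± 0.753 FPKM in vehicle tumours (limma adjusted p = 0.206). Atf3 is also an immediate response gene of macrophages and other leukocytes, whose summed markers are given above; their part in it was not tested. Without vehicle replicate 1, or without GSK343 replicates 3 and 5, 0 genes of these lists were called, and the counts at an unadjusted limma p under 0.05 changed. Without vehicle replicate 1, 13.7% of all lines had such a p (1161 higher and 835 lower of 14523). There the translocation genes had 1 higher and 2 lower, the eIF2 and eIF2B genes 2 higher and 2 lower, the chaperones 0 higher and 3 lower, the degradation genes 0 and 2, and the partners and targets of ATF4 and CHOP 3 and 2. There the sensors had 0 and 0, the transporters 0 and 1, and the synthesis genes and tRNA synthetases the counts given above. Without GSK343 replicates 3 and 5, 6.48% of all lines had such a p (691 higher and 240 lower of 14360). Of these genes in all lists, 2 were higher there (1 tRNA synthetase and 1 partner or target). The lower counts were 2 for translocation, 2 for synthesis, 1 for the chaperones, 1 for the eIF2 and eIF2B genes and 0 for the others.

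**Figure D5:**
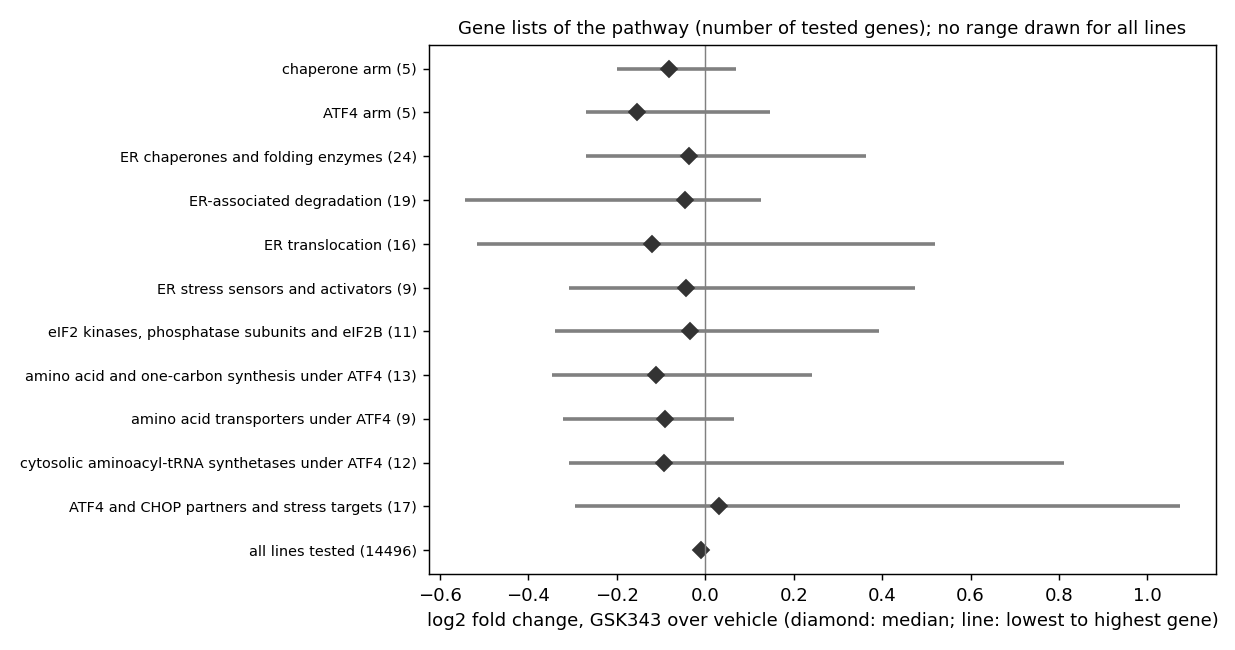
Median log2 fold change, GSK343 over vehicle (diamond), and the lowest to highest gene (line) of the arms and of each list, with the number of tested genes in brackets and the median of all 14496 lines below. The medians lie between -0.15 for the ATF4 arm and 0.03 for the partners and targets of ATF4 and CHOP.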

How the data were processed

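RNA of 10 tumours was selected for poly-A and sequenced on an Illumina HiSeq, per the labels. The tools were StringTie 1.3.3b, HISAT2 2.1.0 and Trimmomatic 0.33, with build mm10, per the submitters' processing notes; options and strandedness are not stated in the sources used. The deposited table holds 1 value per line and tumour without a unit, and the values were read as FPKM as deposited by the authors. It has 55020 lines and 10 further empty columns, which were not used.

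Lines whose mean reached 1 FPKM were tested on log2(FPKM + 1) with limma 3.58.1 (R 4.3.3, intensity trend, two-sided, Benjamini-Hochberg over 14496 lines). The test was also run on simulated data with planted changes larger than those of the 10 genes. That run does not show how it handles changes of their size. Correlations and permutation tests used scipy 1.17.1, and plots matplotlib 3.10.9. Promoters are RefSeq's (GRCm38.p6) and overlaps GENCODE M21's. The 10 genes and all lists were chosen with earlier results of these data known. Of each list, up to 4 tested genes with the smallest limma p could be named, and of each marker list the most abundant gene. The tumours are biological replicates per the series' design text. Alternatives were the pseudocount, the filter, scaling, the variance model, tumour weights, the replicate block, summed lines and each tumour left out; those chosen after seeing the data left out 2 tumours of high mitochondrial share, or vehicle replicate 1 from the lists and correlations.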

Additional observations from a re-analysis of the deposited data

Results flagged for a closer look

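In 10 of 98 groups of 5 tumours (10 genes, the named genes of the lists, and the arms) the highest or lowest tumour stood apart by Dixon's 95% criterion. Chance meets it in about 1 in 20 independent groups. These groups shared the same tumours and the list genes were picked by smallest limma p, so the rates cannot be compared. In vehicle replicate 1 the values that stood apart were Ddit3 at 119 FPKM (43.1 to 49.6 FPKM in the other vehicle tumours), Herpud1 at 60.3 FPKM (24.3 to 30.3), Creb3l2 at 28.2 FPKM (14.02 to 17.1) and Erlec1, a lectin of ER-associated degradation, at 55.9 FPKM (50.7 to 51.9). In vehicle replicate 2 they were Chac1 at 1.48 FPKM (0.685 to 0.897), Atf3 at 43.7 FPKM (18.2 to 25.0), Nupr1 at 18.9 FPKM (6.06 to 9.54) and the ATF4 arm minus the chaperone arm at -1.84 (-2.09 to -2.06 in the other vehicle tumours). This tumour had the highest macrophage sum of the 10, 1429 FPKM, and the part of that in these values was not tested. Wars stood at 43.5 FPKM in GSK343 replicate 4 (22.5 to 27.5 FPKM in the other GSK343 tumours). Cebpg, a C/EBP partner of ATF4, stood low in vehicle replicate 6, at 9.85 FPKM (11.9 to 12.5 FPKM in the other vehicle tumours).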

How the results depend on the processing

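None of the 10 genes was called under any of the 20 alternatives, and no pair of genes was correlated at an adjusted p under 0.05 under the 3 alternatives run. The difference between the arms, -0.03, was -0.12 to 0.0457 with 1 tumour left out. The number of all lines called, 12, became 6 with no filter, 3 with a mean of at least 5 FPKM, 7 after quantile normalization, 2 with the replicate block and 4 without the 2 tumours of highest mitochondrial share; with 1 tumour left out it was 3 to 98, the highest without vehicle replicate 2 and 37 without GSK343 replicate 1. Deviations from the group means correlated at -0.33 to 0.03 between same-numbered tumours, over the 4 numbers that the groups share. Such correlations cannot show whether these tumours were handled together. The replicate block is given only here. Log2 fold changes changed sign for Dnajb9 (0.02785 with the replicate block), Trib3 (0.0269 with tumour weights) and Chac1 (-0.0205 after quantile normalization). With 1 tumour left out they also did for Hspa5 (-0.0558 to 0.22), Dnajb9 (-0.12 to 0.0115), Ddit3 (-0.39 to 0.00426) and Herpud1 (-0.29 to 0.0307). The signs of Hsp90b1, Xbp1 (-0.22 to -0.11), Atf4 and Asns (-0.20 to -0.12) stayed negative under all alternatives run. The causes were not tested. Chac1 fell under the filter in 4 alternatives and has no value there. Depth is unknown, so the error of Chac1, the lowest of the 10 genes, from counting alone cannot be given.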

Other observations

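Some genes of the lists varied strongly between tumours of the same group; they were picked after their values were seen, carry no test, and their causes were not tested. Spcs2, a subunit of the signal peptidase complex, was at 12.6 FPKM in GSK343 replicate 4 and 56.6 to 62.9 FPKM in the other 9 tumours. Ube2g2, a ubiquitin-conjugating enzyme of ER-associated degradation, was at 5.71 FPKM in GSK343 replicate 5 and 25.5 to 31.7 FPKM in the others. Pycr1, an enzyme of proline synthesis, was at 16.7 FPKM in GSK343 replicate 2 and 4.12 to 6.84 FPKM in the others. Sec61g, a subunit of the translocation channel, lay between 38.4 and 209 FPKM in GSK343 tumours and between 46.7 and 234 FPKM in vehicle tumours. Atf5, a factor related to ATF4, was at 12.6 FPKM in GSK343 replicate 3 and 37.0 to 49.96 FPKM in the other GSK343 tumours; in vehicle tumours it was at 36.3 and 44.9 FPKM in replicates 1 and 5 and at 9.63 to 13.8 FPKM in replicates 2, 3 and 6.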
